A study of Rattus norvegicus with 8 samples.

Results

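Calcium channels, pumps, exchangers and store-release proteins set the calcium level of a neuron, and their mRNAs were measured here in the hippocampus of rats fed coral calcium hydride (CCH). The members are the array probes whose RefSeq transcript belongs to a gene with a symbol starting Cacn, Atp2a, Atp2b, Atp2c, Ryr, Stim, Orai or Slc8a, or to Itpr1, Itpr2 or Itpr3. The rule used no measured value. It found 59 probes for 41 genes, among 41012 distinct probes and 12206 named genes on the array, and the annotation holds 50 genes that meet it. The other 9 genes, Atp2a2, Cacna1d, Cacna1h, Cacna1s, Cacna2d4, Orai2, Ryr1, Ryr2 and Ryr3, were not analysed here, so the ryanodine receptors and the main neuronal endoplasmic reticulum pump are missing from all counts. After the detection filter, 55 probes of 38 genes were tested.

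Voltage-gated calcium channels are built on a pore-forming alpha1 subunit, which senses voltage and passes calcium, with alpha2delta and beta subunits that carry the pore to the membrane and tune its gating. Calcium that enters is pushed back out by the plasma membrane calcium ATPases (PMCA) and the sodium-calcium exchangers, or pumped into the endoplasmic reticulum (SERCA) and the Golgi apparatus (SPCA). It leaves the endoplasmic reticulum through IP3 and ryanodine receptors. When the store runs low, STIM proteins in its membrane open Orai channels in the plasma membrane, which is called store-operated entry. In hippocampal neurons these proteins shape transmitter release, dendritic signals and synaptic plasticity.

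The study compared 4 CCH rats, whose standard feed was supplemented with 0.1% CCH powder, with 4 control rats on the standard feed alone. All 8 were male Wistar rats, with no genetic change named, put on the feeds at 6 weeks of age and killed at 8 weeks, and each hippocampal RNA was hybridised to a 1-colour Agilent rat array. A value is the log2 signal of a probe minus the log2 of its array's 75th percentile, so 0 stands for that percentile, and a difference is CCH minus control on that scale. Values are compared between arrays for 1 probe, never between probes. The bulk tissue cannot tell fewer cells of a type from less RNA per cell. The 4 CCH arrays shared slide 2 and scan 2 and the 4 control arrays shared slide 1 and scan 1. Every difference below is therefore also one between slides and scans, and the diet cannot be told apart from them. The titles and treatment fields give the groups used here, although the free-text descriptions of the samples name a lesion model and injections instead.

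The 75th percentile of the signal was 732 ± 110 on the CCH arrays and 611 ± 61.0 on the control arrays (SD, n = 4 each, two-sided exact permutation p = 0.0857), and 76.3% to 79.9% of spots per array were well above background. All 15 hippocampal neuron markers with a probe, such as Snap25 and Slc17a7, passed the detection filter. The 13 tested choroid plexus and ependyma markers were all lower in CCH, with mean scores (log2 deviation from each gene's mean over the 8 arrays) between -3.517 and 1.517 in CCH and between -0.671 and 1.988 in controls (exact p = 0.229), and CCH 2 and CCH 4 were lowest. Scores of the 9 oligodendrocyte markers (0.039 to 0.342 in CCH, -0.325 to -0.087 in controls) and of the 7 microglia markers (-0.327 to -0.012 in CCH, 0.067 to 0.308 in controls) did not overlap between the groups (exact p = 0.0286 each, the smallest that 35 splits allow, 0.143 after adjustment over 10 lists). All 9 oligodendrocyte markers were higher in CCH and none was called, while 5 of the 7 microglia markers were lower and 2 (Cx3cr1, 0.16, and Itgam, 0.28) were higher. The Fc receptor gene Fcgr2b was the 1 microglia marker that limma called (-1.23, adjusted p = 0.0398), and it had the largest difference of the 7. It stood at -1.22, -0.74, -1.47 and -1.26 on the CCH arrays, against 0.24, -0.07, 0.11 and -0.05 on the control arrays. Fcgr2b is part of the microglia score, and no score was taken without it. The separation of the microglia scores is therefore not shown for the other markers of that list. Ttr, an abundant choroid plexus mRNA, stood at 6.47, 1.09, 7.34 and 0.56 on the CCH arrays, against 7.66, 4.95, 7.79 and 7.20 on the control arrays. Scores of the 8 meninges and fibroblast markers were 1.874 on control 1 and 1.265 on control 3. They were -1.46 on control 2, -1.306 on control 4 and -0.796 to 0.438 in CCH (exact p = 0.857). Control 1 was also the highest array for the 4 endothelium and smooth muscle markers (0.802, exact p = 0.4 between the groups). The part of these cell types in the results on calcium genes was not tested.

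The array CCH 1 stood apart. It was the array farthest from the median of its group's other arrays in 38 of the 55 calcium probes (69.1%), as it was in 57.0% of all tested probes. Its median distance over the calcium probes was 0.338, against 0.117 to 0.135 for the other CCH arrays and 0.149 to 0.208 for the control arrays. The SD was larger in CCH than in control for 34 of the 55 probes (61.8%, against 62.4% of all tested probes). Leaving out CCH 1 moved the difference by over 1.5 times, or turned its sign, in 32 of the 55 probes, against 17 to 25 for each of the other arrays. Of those 32, the 11 with a difference over 0.15 in size are also given without it.

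**Figure D1:**
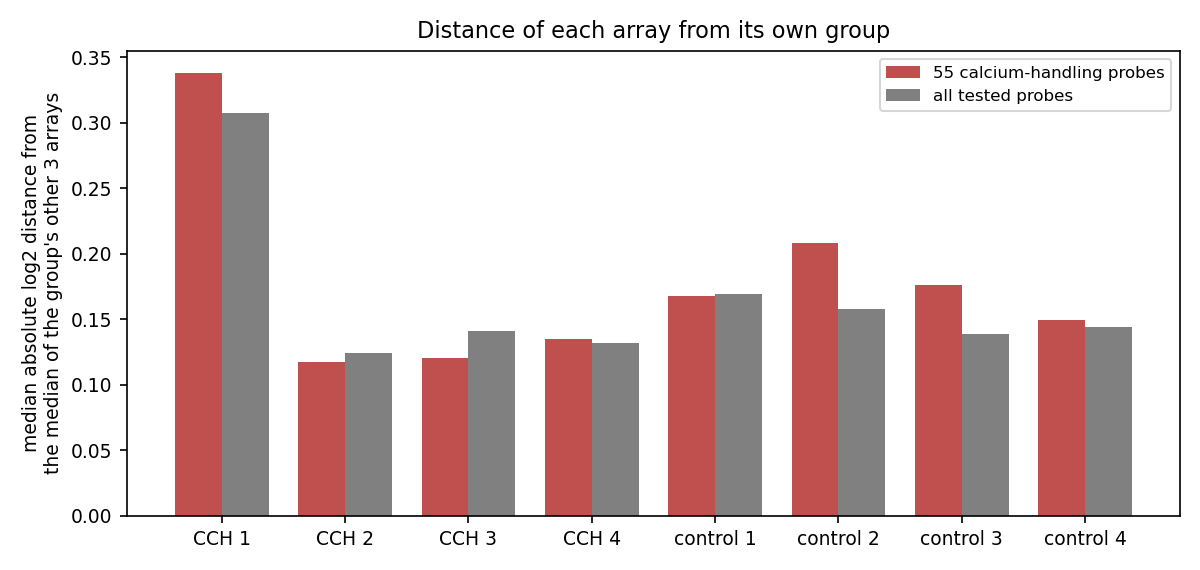
Median absolute log2 distance of each array (horizontal axis, CCH then control) from the median of its group's other 3 arrays, over the 55 calcium-handling probes (red bars) and over all tested probes (grey bars). CCH 1 stands at 0.338 over the calcium probes, and the other 7 arrays lie between 0.117 and 0.208.

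No calcium-handling probe passed the test between CCH and control. With limma across all 31612 tested probes, 0 of the 55 had an adjusted p under 0.05, against 55 probes on the whole array (0.174%, with 0.0759% higher in CCH and 0.0981% lower). At an unadjusted p under 0.05 there were 7, or 12.7%, against 15.4% of all tested probes. Of these, 4 were higher in CCH (Atp2c1, Cacna1c, Cacnb1 and Itpr2; 8.79% of all probes were) and 3 were lower (Stim1, Stim2 and Slc8a1; 6.59% of all probes were). The 4 CCH values and the 4 control values did not overlap in 6 probes, or 10.9%, against 11.3% of all tested probes. Of those, 2 were higher in CCH and 4 were lower, where 6.59% and 4.69% of all probes did so. These shares are near those of the array as a whole.

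The differences were small. They ran from -0.49 (Stim2) to 0.39 (Cacnb1), and the median was 0.03, as it was over all tested probes. In CCH 32 probes were higher and 23 lower (58.2% and 41.8%, against 55.1% and 44.9% of all tested probes). With normexp background correction the split was 22 higher and 33 lower. The median was then -0.06 over the calcium probes and -0.07 over all tested probes. The 95% interval of the difference lay within a 1.25-fold change either way for 7 of the 55 probes, within 1.5-fold for 36 and within 2-fold for 54. The exception was Cacna2d2, whose interval ran from -1.07 to 0.12. Outside the first 7 probes the interval reached past 1.25-fold in at least 1 direction.

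**Figure D2:**
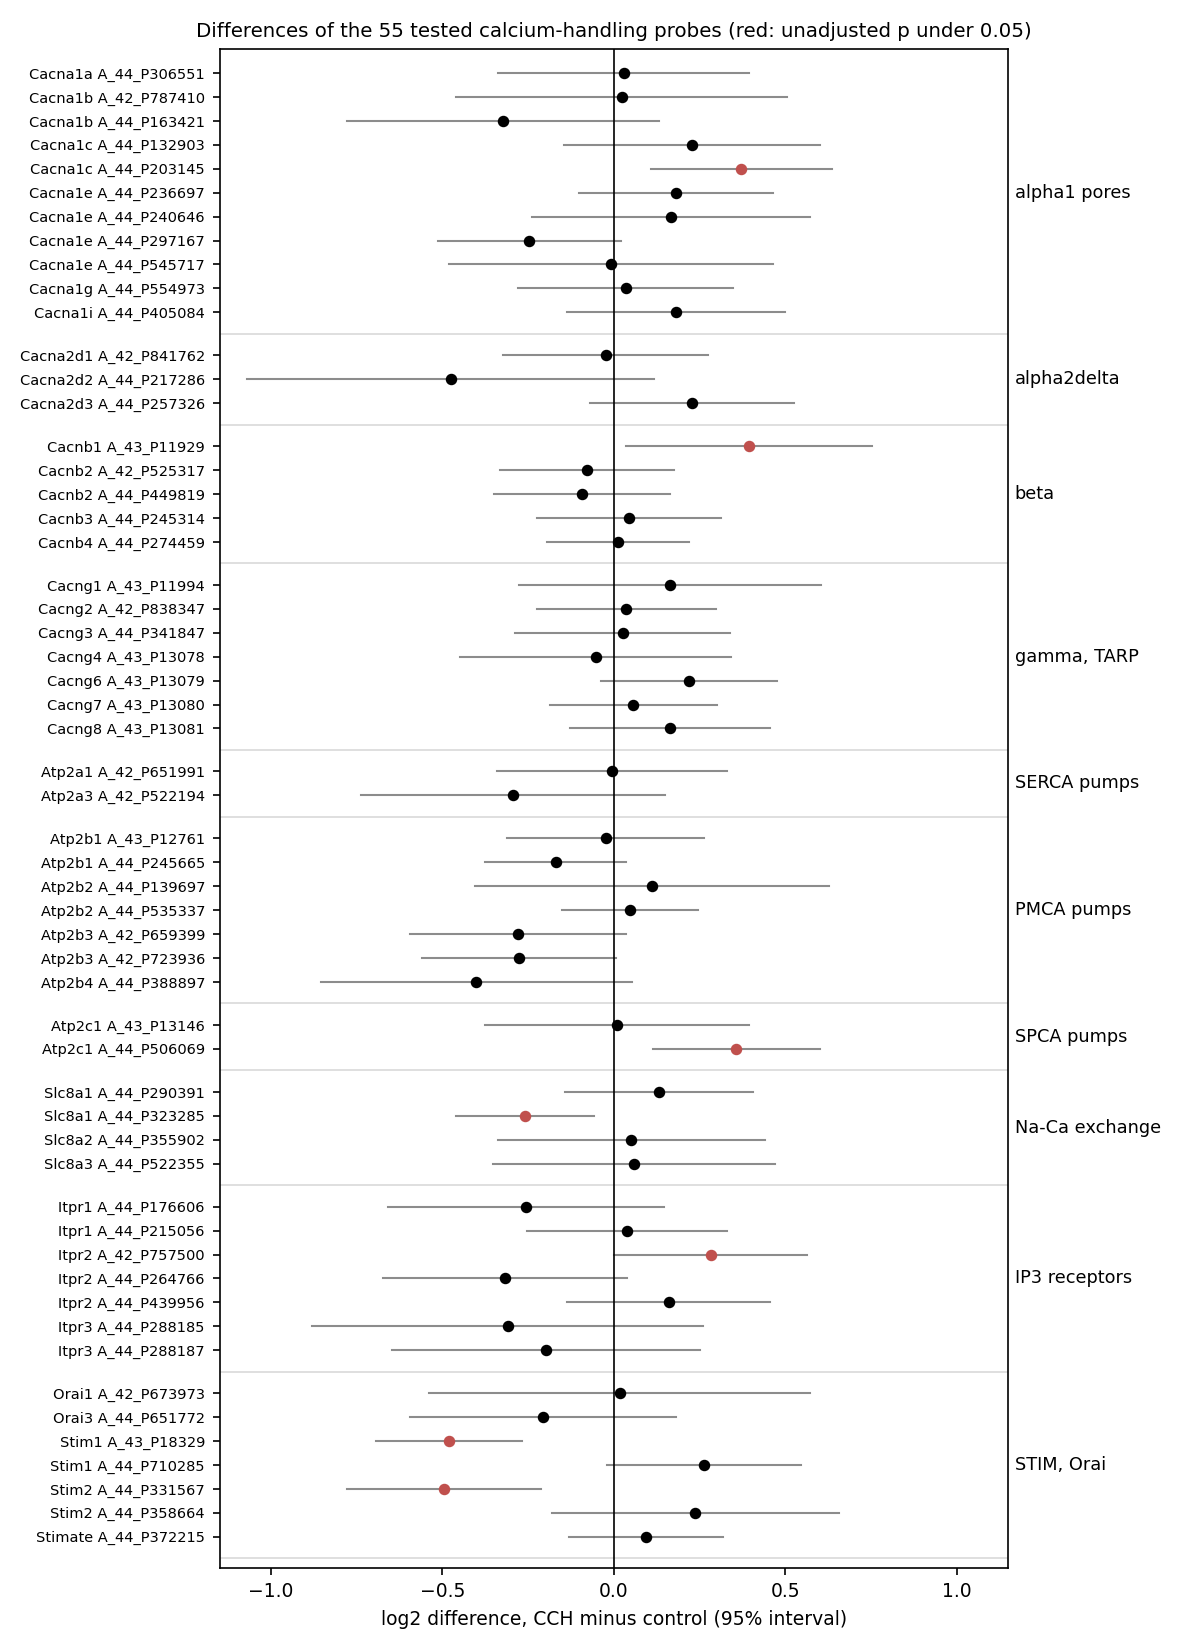
Log2 difference, CCH minus control, of each of the 55 tested probes (points) with its 95% interval (lines), grouped by protein family down the page. The 7 red points had an unadjusted p under 0.05, with Stim1 and Stim2 at the left (-0.48 and -0.49) and Cacnb1 at the right (0.39).

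Among the sensors and channels of store-operated entry, 1 probe each of Stim1 and Stim2 was lower in CCH, and the other probe of each gene was not. Stim1, the main calcium sensor of the endoplasmic reticulum, had on probe A_43_P18329 log2 signals of -0.73, -0.99, -0.84 and -1.04 on the CCH arrays, against -0.39, -0.40, -0.44 and -0.44 on the control arrays. All CCH arrays lay below all control arrays, and the SD was 0.14 in CCH and 0.03 in controls. The difference was -0.48 ± 0.09 (SE, adjusted p = 0.0681), a 1.40-fold lower signal, and this was the smallest p of the 55 probes. Stim2, the sensor that responds to smaller drops in the store, had on probe A_44_P331567 values of -0.42, -0.39, -0.46 and -0.86 on the CCH arrays, against 0.08, -0.01, -0.06 and -0.16 on the control arrays. The groups again did not overlap, and CCH 4 was the lowest of the 8. The difference was -0.49 ± 0.12 (SE, adjusted p = 0.119).

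The second probe of each gene pointed the other way, although both probes of a gene carry the same RefSeq transcript. Stim1 probe A_44_P710285 stood at 2.40, 2.75, 2.76 and 2.96 on the CCH arrays, against 2.43, 2.45, 2.39 and 2.54 on the control arrays. CCH 2, 3 and 4 were above every control and CCH 1 was below 3 of the 4 controls. Its difference was 0.26 ± 0.12 (SE, adjusted p = 0.358). For Stim2 probe A_44_P358664 the values were -0.37, -0.85, -1.21 and -1.09 on the CCH arrays, against -0.90, -1.19, -1.25 and -1.13 on the control arrays. CCH 1 alone was far above the other arrays, and the difference of 0.24 ± 0.18 (SE, adjusted p = 0.592) was 0.07 without that array. Neither Stim gene can therefore be described as lower or higher from its probes.

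**Figure D3:**
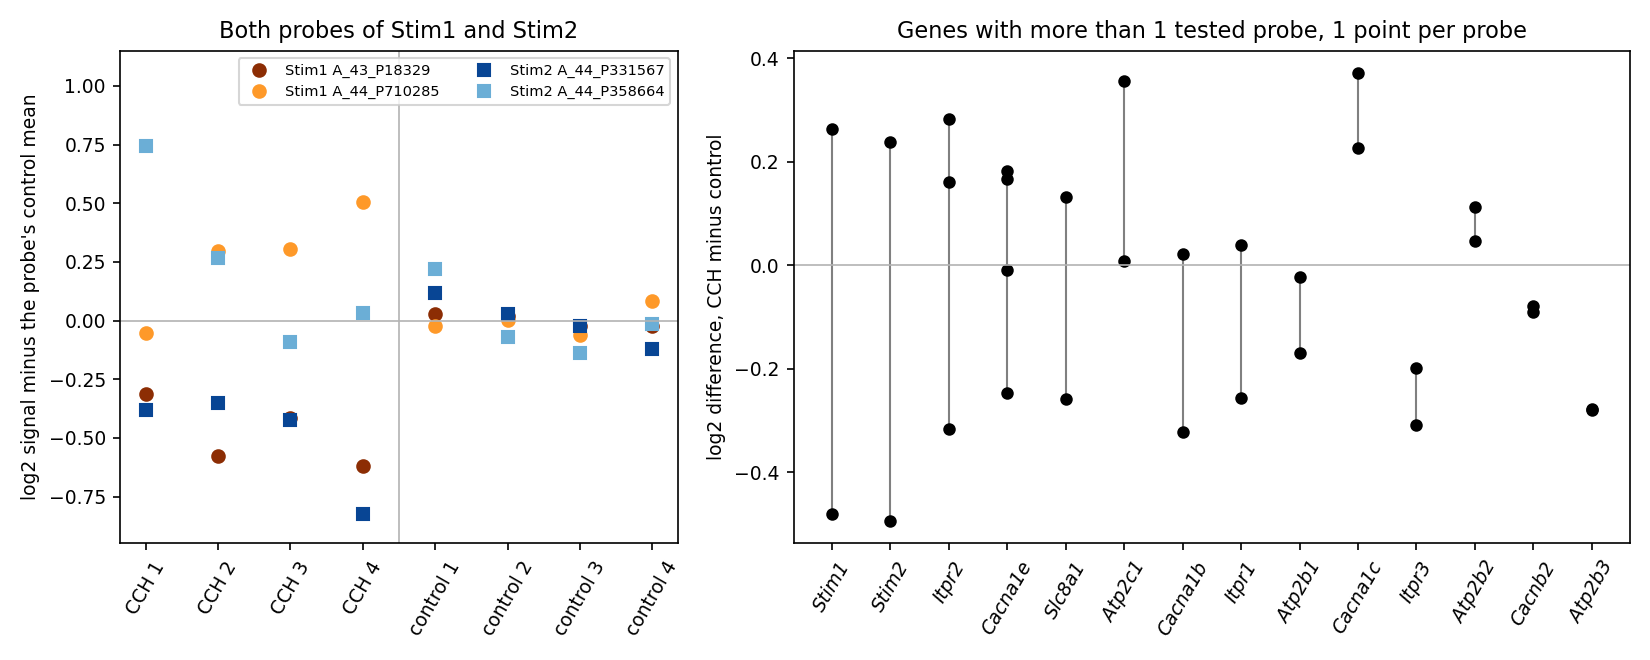
Left, log2 signal of both probes of Stim1 (circles) and Stim2 (squares) on each array, minus the probe's control mean: the darker probes lie below 0 on all 4 CCH arrays and the lighter ones mostly above. Right, the log2 difference, CCH minus control, of each probe (points joined by a line) of the 14 genes with more than 1 tested probe, with Stim1 spanning -0.48 to 0.26 and Stim2 -0.49 to 0.24.

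Stim1 passed the threshold in the fit without CCH 1 and in the one with array weights, and in no other fit run. Without CCH 1, probe A_43_P18329 differed by -0.54 ± 0.08 (SE) and passed limma's test (adjusted p = 0.0353), the only calcium probe to do so, while 2.34% of all tested probes passed. The second Stim1 probe then differed by 0.37 (adjusted p = 0.0662) and Stim2 probe A_44_P331567 by -0.53 (adjusted p = 0.0764). At an unadjusted p under 0.05 there were then 15 calcium probes, 10 higher and 5 lower in CCH (27.3%, against 21.9% of all probes). With array weights Stim1 also passed (-0.53, adjusted p = 0.0188, 4.24% of all probes called), and 12 calcium probes had an unadjusted p under 0.05 (21.8%, against 23.8% of all). Leaving out control 3 together with CCH 1 gave no call among the calcium probes or any others, with 11 calcium probes at an unadjusted p under 0.05 (20.0%, against 18.6% of all). Without CCH 2 and CCH 4, the arrays lowest in choroid plexus markers, Stim1 A_43_P18329 differed by -0.37, Stim2 A_44_P331567 by -0.40 and Cacna1c A_44_P203145 by 0.39. No calcium probe was called in that fit, and 5 had an unadjusted p under 0.05 (9.09%, against 9.99% of all).

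**Figure D4:**
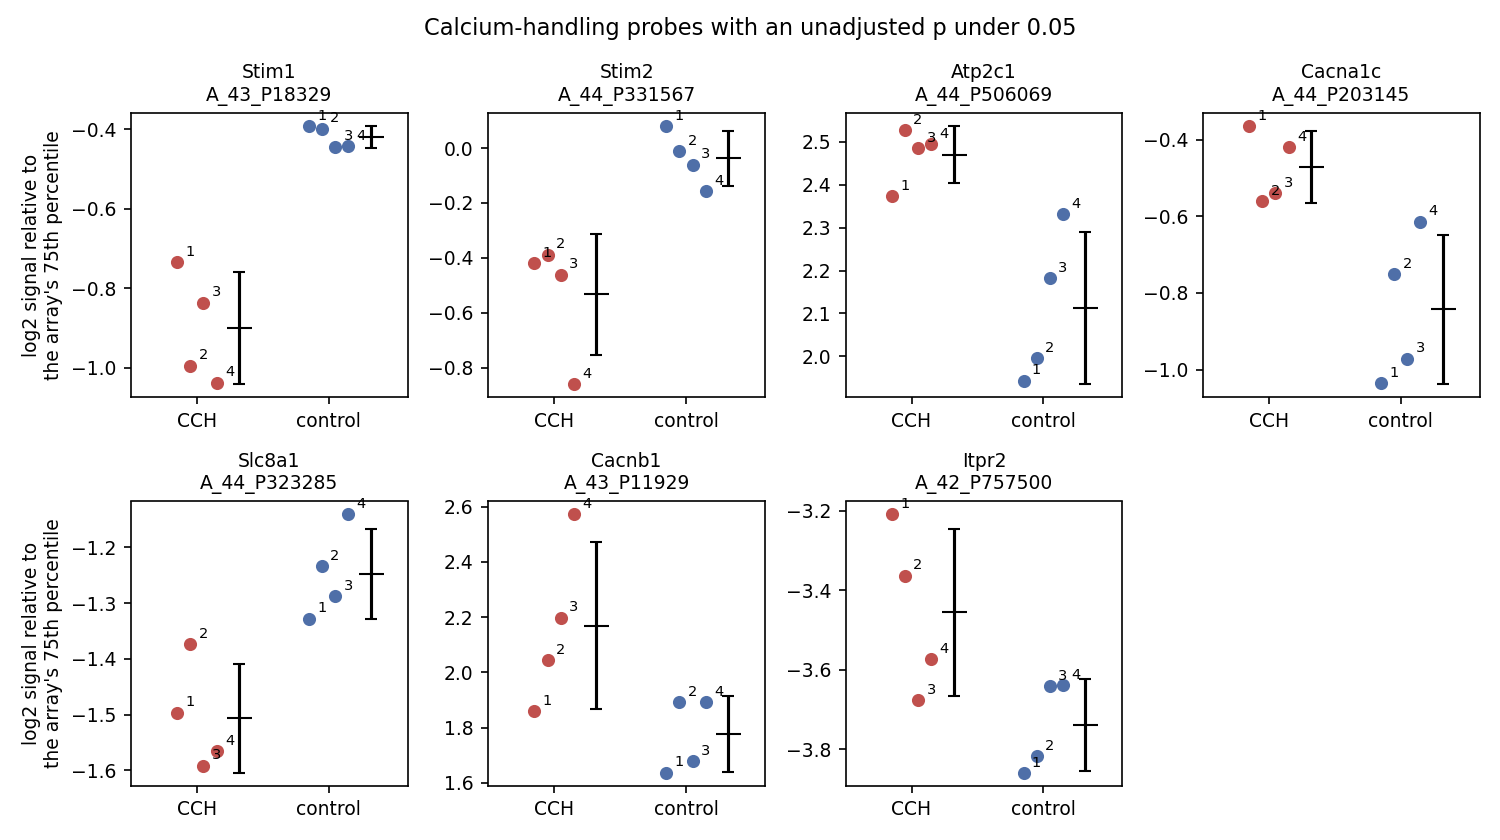
Log2 signal relative to the array's 75th percentile (vertical axes, 1 scale per panel) of the 7 probes with an unadjusted p under 0.05, CCH left and control right, with replicate numbers beside the points and the mean ± SD as bars. The groups do not overlap in the first 5 panels, from Stim1 to Slc8a1, and overlap for Cacnb1 and Itpr2.

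Orai channels gave no call. Orai1, the classical pore of store-operated entry, averaged -0.93 ± 0.46 on the CCH arrays and -0.95 ± 0.30 on the control arrays (SD, n = 4 each), a difference of 0.02 ± 0.24 (SE, adjusted p = 0.983) that became -0.20 without CCH 1. Orai3, a pore of the same family found in mammals, averaged -2.11 ± 0.35 on the CCH arrays and -1.91 ± 0.09 on the control arrays. Its difference was -0.21 ± 0.17 (SE, adjusted p = 0.620), and it was -0.38 without CCH 1 (adjusted p = 0.0681). Stimate, an endoplasmic reticulum protein that helps STIM proteins reach contact sites with the plasma membrane, averaged 1.29 ± 0.07 on the CCH arrays and 1.20 ± 0.15 on the control arrays and differed by 0.09 ± 0.10 (SE, adjusted p = 0.709).

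The IP3 receptors release stored calcium after receptor activation, and their probes also differed in direction. Of 7 probes, 3 were higher and 4 lower in CCH. Itpr2, the isoform known for astrocytes, had on probe A_42_P757500 values of -3.21, -3.36, -3.68 and -3.57 on the CCH arrays, against -3.86, -3.82, -3.64 and -3.64 on the control arrays. CCH 1, 2 and 4 were above every control, but CCH 3 was below control 3 and control 4. The difference was 0.28 ± 0.12 (SE, adjusted p = 0.323), and it was 0.02 with normexp background correction. The other Itpr2 probes differed by -0.32 (A_44_P264766, adjusted p = 0.380) and 0.16 (A_44_P439956, adjusted p = 0.610). The first of these was -0.21 without control 1, and the other was 0.09 without CCH 2 or without control 3. Processed signals of A_44_P439956 were dim, from 17.32 to 32.39.

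Itpr1, the main neuronal isoform, was measured by probe A_44_P215056 with 4.86 ± 0.22 on the CCH arrays and 4.82 ± 0.13 on the control arrays (SD, n = 4 each), a difference of 0.04 ± 0.13 (SE, adjusted p = 0.919). Its second probe, A_44_P176606, is printed in 10 spots and differed by -0.26 ± 0.18 (SE, adjusted p = 0.545). CCH 1 stood at 0.64 there and the other CCH arrays between 1.32 and 1.42, and without CCH 1 the difference was -0.08. Itpr3, more typical of secretory and sensory epithelia, averaged -3.56 ± 0.31 on the CCH arrays and -3.25 ± 0.47 on the control arrays on probe A_44_P288185. It differed by -0.31 and -0.20 on its probes A_44_P288185 and A_44_P288187, with adjusted p of 0.611 and 0.689. Both Itpr3 probes were highest in control 1 and lowest in CCH 3 or CCH 4. Without control 1 their differences were -0.11 and -0.07, and without CCH 1 the second was -0.32.

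Among the pore-forming alpha1 subunits, 11 probes of 6 genes were tested, and none was called. In CCH 8 were higher and 3 lower (72.7% higher, against 55.1% of all tested probes), and this share was not tested. Of the 8, the probes Cacna1a A_44_P306551, Cacna1c A_44_P132903 and Cacna1i A_44_P405084 were lower with normexp background correction, and Cacna1b A_42_P787410 with quantile normalization. Cacna1c, the L-type pore Cav1.2 that links activity to gene expression, had on probe A_44_P203145 values of -0.36, -0.56, -0.54 and -0.42 on the CCH arrays, against -1.04, -0.75, -0.97 and -0.61 on the control arrays. The groups did not overlap, and the difference was 0.37 ± 0.12 (SE, adjusted p = 0.186), or 1.29-fold. This probe is printed in 10 spots, whose signals varied by 2.55% to 7.34% (coefficient of variation) within an array. The second Cacna1c probe, A_44_P132903, averaged -4.60 ± 0.23 on the CCH arrays and -4.82 ± 0.27 on the control arrays (SD, n = 4 each). It differed by 0.23 ± 0.16 (SE, adjusted p = 0.562), by -0.12 with normexp background correction and by 0.12 without CCH 4. Its processed signals were dim, from 18.31 to 33.61.

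The presynaptic pores gave no call. Cacna1a, the P/Q-type pore that drives fast transmitter release, averaged -1.98 ± 0.22 on the CCH arrays and -2.01 ± 0.26 on the control arrays (SD, n = 4 each), a difference of 0.03 ± 0.16 (SE, adjusted p = 0.955). Cacna1b, the N-type pore, had on probe A_44_P163421 values of -3.75, -3.24, -3.37 and -3.22 on the CCH arrays, against -2.55, -3.13, -3.40 and -3.21 on the control arrays. Control 1 was the highest and CCH 1 the lowest, control 3 lay among the CCH arrays, and the difference was -0.32 ± 0.20 (SE, adjusted p = 0.492). It was -0.15 without control 1 and -0.21 without CCH 1. Its other probe, A_42_P787410, averaged 3.41 ± 0.42 on the CCH arrays and 3.38 ± 0.21 on the control arrays, a difference of 0.02 ± 0.21 (SE, adjusted p = 0.974). CCH 1 was lowest on that probe too, at 2.77 against 3.59 to 3.65 on the other CCH arrays.

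Cacna1e, the R-type pore of dendritic spines and presynaptic terminals, was covered by 4 probes. Probe A_44_P297167 had the smallest p, with -0.40, -0.29, -0.36 and -0.20 on the CCH arrays, against -0.28, 0.18, -0.18 and 0.02 on the control arrays. Control 1 alone lay within the CCH range, and the difference was -0.25 ± 0.12 (SE, adjusted p = 0.363). The other 3 probes differed by 0.18 (A_44_P236697), 0.17 (A_44_P240646) and -0.01 (A_44_P545717), with adjusted p from 0.540 to 0.990. The difference of A_44_P240646 was 0.31 without CCH 1 and 0.07 without CCH 4. The T-type pores, which open near the resting potential, were also without a call. Cacna1g averaged -0.66 ± 0.10 on the CCH arrays and -0.70 ± 0.26 on the control arrays, a difference of 0.04 ± 0.14 (SE, adjusted p = 0.933). For Cacna1i the averages were -3.86 ± 0.10 on the CCH arrays and -4.04 ± 0.26 on the control arrays, with a difference of 0.18 ± 0.14 (SE, adjusted p = 0.587) that was -0.06 with normexp background correction.

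The auxiliary subunits gave 15 tested probes and no call. Cacnb1, a beta subunit that carries the pore to the membrane, had the highest difference of all 55 probes, with values of 1.86, 2.05, 2.20 and 2.57 on the CCH arrays, against 1.64, 1.89, 1.68 and 1.89 on the control arrays. CCH 2, 3 and 4 were above every control, and CCH 1 was just below control 2 and control 4. The difference was 0.39 ± 0.16 (SE, adjusted p = 0.284), and it was 0.26 without CCH 4, the highest array. The other beta subunits differed less. Cacnb2 averaged 2.87 ± 0.16 on the CCH arrays and 2.95 ± 0.13 on the control arrays on probe A_42_P525317, with differences of -0.08 there and -0.09 on probe A_44_P449819. Cacnb3 averaged 4.74 ± 0.17 on the CCH arrays and 4.70 ± 0.15 on the control arrays, with a difference of 0.04 ± 0.12 (SE, adjusted p = 0.898). Cacnb4, mutated in the lethargic mouse, averaged -2.51 ± 0.04 on the CCH arrays and -2.52 ± 0.13 on the control arrays, with a difference of 0.01 ± 0.09 (SE, adjusted p = 0.969).

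The alpha2delta subunits, which raise channel density at the membrane, held the probe with the widest interval. Cacna2d2 had values of -4.66, -5.15, -5.54 and -5.53 on the CCH arrays, against -5.27, -4.78, -4.24 and -4.69 on the control arrays. Its processed signals were dim, from 13.84 to 34.86. CCH 1 was the highest CCH array and control 1 the lowest control, so the groups overlapped, and the difference was -0.48 ± 0.26 (SE, adjusted p = 0.433), or -0.66 without CCH 1 and -0.31 without control 3. Cacna2d3 had values of 2.42, 2.17, 1.85 and 2.04 on the CCH arrays, against 1.91, 2.00, 1.76 and 1.90 on the control arrays. CCH 3 was below 3 of the 4 controls and the difference was 0.23 ± 0.13 (SE, adjusted p = 0.456), or 0.13 without CCH 1, the highest array. Cacna2d1, the binding site of gabapentin, averaged 5.57 ± 0.22 on the CCH arrays and 5.59 ± 0.14 on the control arrays, with a difference of -0.02 ± 0.13 (SE, adjusted p = 0.956).

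The gamma family holds muscle channel subunits and the TARPs, which carry AMPA-type glutamate receptors to the synapse. Of 7 tested probes 6 were higher in CCH, where 55.1% of all tested probes were, and this share was not tested. None had an unadjusted p under 0.05. Cacng2, the TARP stargazin, averaged 0.89 ± 0.16 on the CCH arrays and 0.85 ± 0.14 on the control arrays, a difference of 0.04. For Cacng3 the averages were -0.22 ± 0.24 on the CCH arrays and -0.25 ± 0.13 on the control arrays (difference 0.03). The TARP Cacng4 averaged -5.46 ± 0.24 on the CCH arrays and -5.41 ± 0.29 on the control arrays (difference -0.05). None of these 3 had groups that stood apart. Cacng8, a TARP enriched in the hippocampus, averaged 2.06 ± 0.19 on the CCH arrays and 1.89 ± 0.16 on the control arrays, a difference of 0.16 ± 0.13 (SE, adjusted p = 0.596), or 0.25 without CCH 1. Cacng7 averaged -2.54 ± 0.14 on the CCH arrays and -2.60 ± 0.13 on the control arrays and differed by 0.06 ± 0.11 (SE, adjusted p = 0.843). The muscle-type genes Cacng1, Cacng6 and Atp2a1, like the TARP Cacng4, were each well above background on all 8 arrays, at dim signals. Cacng6 stood at -4.82, -4.50, -4.48 and -4.50 on the CCH arrays, against -4.96, -4.70, -4.83 and -4.67 on the control arrays. CCH 2, 3 and 4 were above every control, and the difference was 0.22 ± 0.11 (SE, adjusted p = 0.402). With normexp background correction Cacng1, Cacng6 and Cacng7 were lower in CCH (-0.18, -0.09 and -0.08), and without CCH 1 Cacng2 and Cacng3 were (-0.03 and -0.06).

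Of the pumps, the Golgi pump Atp2c1 (SPCA1, which moves calcium and manganese) had the smallest p. Probe A_44_P506069 gave 2.37, 2.53, 2.49 and 2.49 on the CCH arrays, against 1.94, 2.00, 2.18 and 2.33 on the control arrays. The groups did not overlap, with CCH 1 closest to the controls and control 4 closest to CCH. The difference was 0.36 ± 0.11 (SE, adjusted p = 0.175), or 1.28-fold. The other Atp2c1 probe, A_43_P13146, differed by 0.01 ± 0.17 (SE, adjusted p = 0.988). CCH 1 was at 2.07 there, against 2.73 to 2.80 on the other CCH arrays, and without it the difference was 0.18.

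Among the probes for the plasma membrane pumps, 5 of 7 were lower in CCH, where 44.9% of all tested probes were, and none was called. Of the 5, Atp2b1 A_43_P12761 was higher without CCH 1 (0.09). Atp2b3 (PMCA3), a fast neuronal pump, had on probe A_42_P723936 values of 0.39, 0.78, 0.95 and 0.66 on the CCH arrays, against 1.04, 0.92, 0.99 and 0.95 on the control arrays. CCH 3 lay above control 2, and the other 3 CCH arrays were below every control. The difference was -0.28 ± 0.12 (SE, adjusted p = 0.335), and on probe A_42_P659399 it was -0.28 ± 0.14 (SE, adjusted p = 0.380). Without CCH 1 they were -0.18 and -0.17. Atp2b4 (PMCA4) had values of -5.32, -5.00, -5.90 and -5.51 on the CCH arrays, against -5.05, -5.14, -5.23 and -4.71 on the control arrays. CCH 2 alone lay among the controls, and the difference was -0.40 ± 0.20 (SE, adjusted p = 0.384), or -0.24 without CCH 3, the lowest array. The processed signals of Atp2b4 were dim, from 10.97 to 23.33.

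Atp2b1 (PMCA1), the widely expressed pump, did not overlap between the groups on probe A_44_P245665, with 4.17, 4.44, 4.41 and 4.38 on the CCH arrays, against 4.49, 4.58, 4.54 and 4.47 on the control arrays. The controls lay above every CCH array by little, with a difference of -0.17 ± 0.09 (SE, adjusted p = 0.418), or -0.11 without CCH 1. Its other probe differed by -0.02 (A_43_P12761). Atp2b2 (PMCA2), known for hair cells and Purkinje cells, averaged 1.02 ± 0.02 on the CCH arrays and 0.97 ± 0.12 on the control arrays on probe A_44_P535337, a difference of 0.05 ± 0.09 (SE, adjusted p = 0.842). On probe A_44_P139697 the Atp2b2 difference was 0.11 ± 0.23 (SE, adjusted p = 0.857), and 0.34 without CCH 1.

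For the endoplasmic reticulum pumps, Atp2a3 (SERCA3) had on probe A_42_P522194 values of -2.45, -1.94, -2.27 and -2.36 on the CCH arrays, against -1.60, -2.11, -1.74 and -2.40 on the control arrays. Both groups spanned a wide range and overlapped, with a difference of -0.29 ± 0.19 (SE, adjusted p = 0.522), or -0.17 without control 1. Atp2a1 (SERCA1, the pump of fast-twitch muscle) averaged -3.88 ± 0.24 on the CCH arrays and -3.88 ± 0.19 on the control arrays, a difference of -0.01 ± 0.15 (SE, adjusted p = 0.992).

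The sodium-calcium exchangers clear large calcium loads. Slc8a1 (NCX1) had on the 10-spot probe A_44_P323285 values of -1.50, -1.37, -1.59 and -1.57 on the CCH arrays, against -1.33, -1.23, -1.29 and -1.14 on the control arrays. All CCH arrays were below all controls, with a difference of -0.26 ± 0.09 (SE, adjusted p = 0.217), and the spots of an array varied by 3.30% to 8.47% (coefficient of variation). The other Slc8a1 probe, A_44_P290391, averaged -2.54 ± 0.11 on the CCH arrays and -2.67 ± 0.20 on the control arrays (SD, n = 4 each). It differed in the other direction, by 0.13 ± 0.12 (SE, adjusted p = 0.657). Slc8a2 (NCX2), prominent in brain, averaged -0.15 ± 0.36 on the CCH arrays and -0.20 ± 0.06 on the control arrays and differed by 0.05 ± 0.17 (SE, adjusted p = 0.920). CCH 1 was at -0.70 and the other CCH arrays between 0.00 and 0.06, and the difference without CCH 1 was 0.23. Slc8a3 (NCX3) averaged -4.46 ± 0.37 on the CCH arrays and -4.52 ± 0.14 on the control arrays, a difference of 0.06 ± 0.18 (SE, adjusted p = 0.912).

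Several calcium genes thus had probes with differences of opposite sign, and the gap between the probes of a gene was not tested. Of the 14 genes with more than 1 tested probe, 7 had probes on both sides of 0 (50.0%, against 871 of 2265 such genes on the array, 38.5%). The median gap between the highest and the lowest difference of a gene's probes was 0.321, against 0.144 for all such genes. Stim1 (gap 0.745), Stim2 (0.732) and Itpr2 (0.600) were the 3 over 0.5, and 8.96% of all such genes were. The Stim1 gap was larger than that of 97.1% of genes and the Stim2 gap larger than that of 97.0%. Genes with 3 or 4 probes, as for Itpr2 and Cacna1e, have more room for a gap, and the share was not tested. When each gene was given the mean of its probes, 0 of 38 genes were called, against 0.441% of all named genes, and 2 had an unadjusted p under 0.05 (5.26%, against 14.9%). The positions of the probes in the transcripts were not used here.

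The 4 probes left out by the detection filter were 1 of the Atp2a3 probes (A_44_P151734), Atp2c2, Cacna1f and the TARP Cacng5. Each was well above background on 1 CCH and 1 control array. Cacna1f encodes Cav1.4, the L-type pore of photoreceptor terminals, which is also found in the pineal gland. Its processed signal was 485, 1.48, 1.43 and 1.90 on the CCH arrays, against 1.62, 1.20, 40.8 and 2.10 on the control arrays. CCH 1 and control 3 were thus the arrays where it was detected, and no diet difference can be read from it.

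Other genes of the pineal gland and photoreceptors, listed after the Cacna1f values were seen, were high on CCH 1, and many of them on control 3. Of 13 listed genes 10 had a probe, among them Tph1 and Aanat of melatonin synthesis and Crx, Sag and Pdc of photoreceptors. All 10 were highest on CCH 1 and 9 were second highest on control 3. On control 3, however, Aanat was only 0.13 above the median of the 6 arrays other than these. Pde6b was 0.99 above that median, and Rcvrn was 0.19 below it and not detected there. Tph1 stood at 4.75, -4.06, -8.97 and -8.89 on the CCH arrays, against -7.78, -8.96, 0.95 and -6.90 on the control arrays. Crx, a transcription factor of pineal and photoreceptor cells, stood at -0.59 on CCH 1 and -4.46 on control 3, with the other 6 arrays at or below -7.07. The cerebellar genes Gabra6 (-0.98) and Pcp2 (0.17) were high on control 3 alone. The part of tissue other than hippocampus in the distance of CCH 1 from its group was not tested. Without both arrays Stim1 A_43_P18329 differed by -0.55 (adjusted p = 0.0839), Cacna1c A_44_P203145 by 0.29 and Atp2c1 A_44_P506069 by 0.41.

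**Figure D5:**
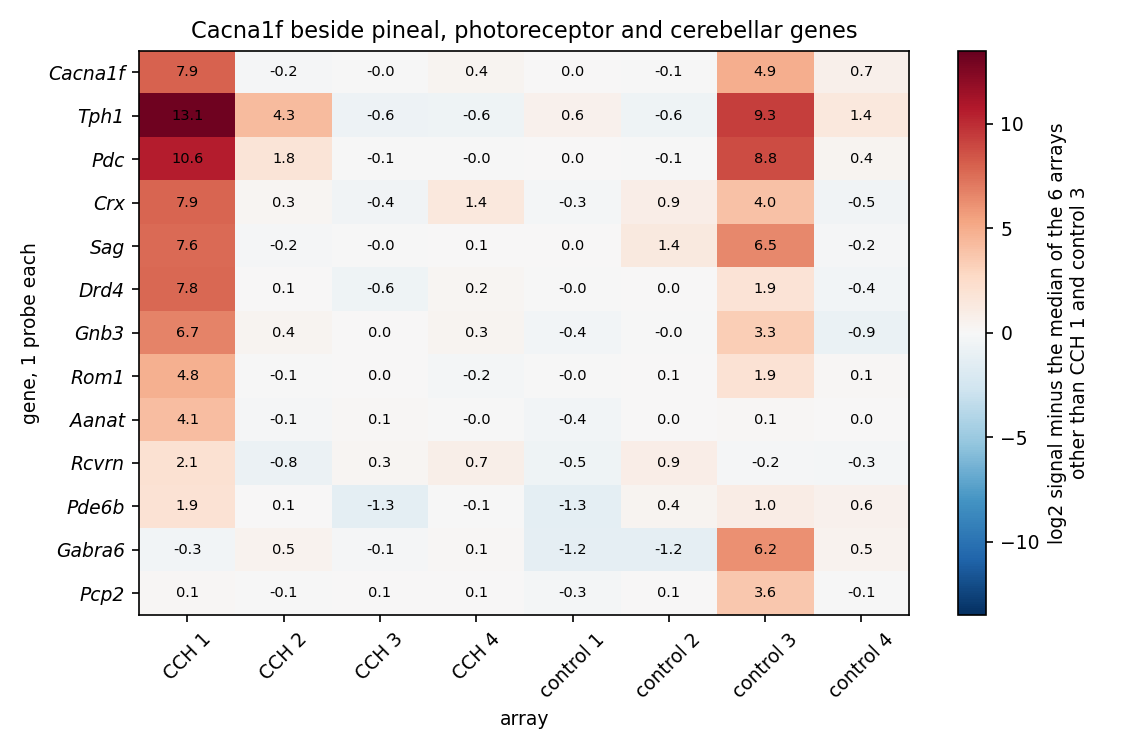
Log2 signal of Cacna1f, of 10 pineal and photoreceptor genes and of 2 cerebellar genes on each array (columns, CCH then control), minus the median of the 6 arrays other than CCH 1 and control 3, as colour and printed value. Cacna1f is 7.94 above that median on CCH 1 and 4.93 above it on control 3, and Gabra6 and Pcp2 stand out on control 3.

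Genes that work with these channels and pumps gave no call with limma either. Of 89 listed genes outside the member rule, 68 were tested with 85 probes. Of these probes 49 were higher and 36 lower in CCH (57.6% and 42.4%, against 55.1% and 44.9% of all tested probes). An unadjusted p under 0.05 was found for 10 of them (11.8%, 5 in each direction), against 15.4% of all tested probes (8.79% higher and 6.59% lower). Among calmodulin, its kinases and calcineurin (27 probes), Camk2g, a CaM kinase II subunit, stood at 1.27, 1.38, 1.51 and 1.40 on the CCH arrays, against 1.82, 2.00, 1.73 and 1.90 on the control arrays. The groups did not overlap, and the difference was -0.47 ± 0.09 (SE, adjusted p = 0.0723). Rcan2, a calcineurin regulator, differed by 0.41 (adjusted p = 0.200) on the probe with the smaller p and by 0.07 on the other.

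Among mitochondrial uptake genes (12 probes), the outer membrane channel Vdac1 had on probe A_44_P213415 values of 2.83, 2.95, 3.22 and 3.11 on the CCH arrays, against 3.55, 3.66, 3.45 and 3.56 on the control arrays. The groups did not overlap and the difference was -0.53 (adjusted p = 0.0738), but its other probes differed by 0.20 and 0.14. Among store and channel regulators (30 probes), Itprid2, which binds IP3 receptors, differed by -0.48 (adjusted p = 0.137) and by -0.10 and -0.09 on its other probes. Fkbp1a, a small immunophilin that binds ryanodine receptors, differed by 0.26 (adjusted p = 0.216) and by 0.23 and 0.19 on the others. Among channel-binding and scaffolding genes (11 probes), Rem2, a GTPase that restrains the channels, differed by 0.29 (adjusted p = 0.180) and Cabp1, a calcium-binding channel modulator, by 0.32 (adjusted p = 0.370). Of the remaining entry and exchange genes (5 probes), the potassium-dependent exchanger Slc24a2 differed by -0.46 (adjusted p = 0.107) and the cation channel Trpc5 by 0.25 (adjusted p = 0.333).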

How the data were processed

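Hippocampal RNA of 8 rats was labelled with Cy3 and hybridised to 1-colour Agilent rat arrays. Per the file headers and the submitters' processing notes, the deposited intensity values come from Agilent Feature Extraction 9.5, and the column used here is the background-subtracted processed signal. The deposited value table holds those intensities to within 0.00498 (relative difference), and it was used only as an alternative. The annotation named 15184 of 41012 probes (37.0%) through RefSeq accessions, from a table for GRCr8. Probe sequences were not used here.

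Control spots and 55 to 122 marked spots per array were left out, and no spot was saturated. The log2 signal was centred on each array's 75th percentile, and spots of a probe were averaged. Probes well above background on at least 4 of 8 arrays, with at least 3 values per group, were tested two-sided with lmFit and eBayes of limma 3.58.1 (R 4.3.3), without covariates. Benjamini-Hochberg adjustment ran over all tested probes, with a threshold of 0.05. The step was tested on simulated data with independent noise and changes larger than any calcium difference here. That run does not show how the step does with small differences or an outlying array. Exact permutation over the 35 splits was used for array measures and marker scores. The 4 arrays per group limit the precision. The limma p-values set a group difference against the spread between arrays within the groups, and they do not separate diet from slide and scan.

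The members and lists were chosen with earlier results of these data known. The rule for named genes took the 16 genes whose best member probe had the smallest unadjusted p, with their other probes, a fixed set of neuronal members by role, muscle-type members, members that failed the filter, and the 2 smallest p per role of the partner list. Stimate also meets the rule on symbols. The pineal, photoreceptor and cerebellar genes beside Cacna1f were chosen after its values were seen. Alternatives covered background correction, normalization, scaling, the filter, marked spots, a replicate block, the variance model, array weights, arrays left out and the mean of a gene's probes.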

Additional observations from a re-analysis of the deposited data

Results flagged for a closer look

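Arrays were checked for a value far from the other 3 of their group, by Dixon's ratio at its critical value for 4 samples, in 118 groups (59 probes in each diet). Chance gives about 1 such value in 20 independent groups, and 8 of 118 (6.78%) were found, 6 of them on CCH 1. These groups share the same arrays, and some share a gene, so they are not independent and the count cannot be weighed against chance. The check was not run over all tested probes, of which CCH 1 was the farthest array of its group in 57.0%. CCH 1 was low for the Golgi pump Atp2c1 on probe A_43_P13146 (2.072, against 2.734 to 2.799 on the other CCH arrays), for the N-type pore Cacna1b on probe A_42_P787410 (2.775, against 3.592 to 3.651), for the gamma subunit Cacng6 (-4.815, against -4.498 to -4.479), for the IP3 receptor Itpr1 on probe A_44_P176606 (0.635, against 1.318 to 1.424) and for the exchanger Slc8a2 (-0.696, against -0.004 to 0.056). CCH 1 was high for Cacna1f (-0.862, against -8.983 to -8.398), a probe left out by the detection filter. The other values were control 3 for Cacna1f (-3.87, against -8.877 to -8.116 on the other control arrays) and CCH 4 for Stim2 on probe A_44_P331567 (-0.86, against -0.461 to -0.388 on the other CCH arrays).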

How the results depend on the processing

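The count of 0 calls among the calcium probes held under each alternative except array weights (1, Stim1) and the fit without CCH replicate 1 (1, Stim1); with 1 array left out it ran from 0 to 1. The 7 probes with an unadjusted p under 0.05 became 12 with array weights (against 23.8% of all tested probes). With normexp background correction there were 13 (against 20.9% of all). That fit used the median signal in place of the mean signal and was chosen after seeing the data. The count was 11 without CCH replicate 1 and control replicate 3 together (against 18.6% of all, chosen after seeing the data). It was 2 of 38 when probes were averaged per gene (against 14.9% of all named genes). With 1 array left out it was 5 to 15, the 15 without CCH replicate 1 (against 11.7% to 21.9% of all). The 55 calls over all probes were 733 without CCH replicate 1, 1339 with array weights, 246 with normexp, 220 with eBayes trend and robust, 209 with detection on all 8 arrays, 29 without a detection filter, and 0 or 1 with any other array left out. Calcium probes whose groups do not overlap numbered 6 (10.9%, against 11.3% of all tested probes). Under the alternatives they numbered between 1 (probes averaged per gene) and 17 (without CCH replicate 1 and control replicate 3). The shares over all probes were not taken under the alternatives, and groups of fewer arrays separate more easily.

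Of the 55 probes, 30 kept their direction under all alternatives that were fitted per probe. The 7 with an unadjusted p under 0.05 were among them. They were picked by their p in these same data, so keeping their direction is no separate support. Of the 7, Itpr2 A_42_P757500 shrank to 0.02 with normexp. The median difference over all tested probes was 0.03 in the main fit and -0.07 with normexp. Directions reversed as follows, and the cause was not tested. With normexp: Cacna1a A_44_P306551 -0.023, Cacna1c A_44_P132903 -0.12, Cacna1i A_44_P405084 -0.057, Cacnb4 A_44_P274459 -0.058, Cacng1 A_43_P11994 -0.18, Cacng6 A_43_P13079 -0.092, Cacng7 A_43_P13080 -0.079, Itpr2 A_44_P439956 -0.099, Slc8a1 A_44_P290391 -0.0065 and Slc8a3 A_44_P522355 -0.10. With array weights: Atp2b1 A_43_P12761 0.085, Cacna1e A_44_P545717 0.13, Cacna2d1 A_42_P841762 0.092, Cacnb4 A_44_P274459 -0.001, Cacng2 A_42_P838347 -0.0089, Cacng3 A_44_P341847 -0.033, Cacng4 A_43_P13078 0.0037, Orai1 A_42_P673973 -0.19 and Slc8a3 A_44_P522355 -0.068. With quantile normalization: Atp2c1 A_43_P13146 -0.012, Cacna1b A_42_P787410 -0.0041, Cacna2d1 A_42_P841762 0.031, Cacnb4 A_44_P274459 -0.0001 and Orai1 A_42_P673973 -0.0005. With median scaling: Atp2c1 A_43_P13146 -0.0014. With the percentile taken over probes detected on every array: Atp2c1 A_43_P13146 -0.0057 and Cacnb4 A_44_P274459 -0.0027. Without CCH replicates 2 and 4 together: Atp2b2 A_44_P139697 -0.11, Atp2c1 A_43_P13146 -0.19, Cacna1a A_44_P306551 -0.14, Cacna1b A_42_P787410 -0.19, Cacnb3 A_44_P245314 -0.073, Cacng7 A_43_P13080 -0.0051, Itpr1 A_44_P215056 -0.080 and Slc8a2 A_44_P355902 -0.15. Without CCH replicate 1 and control replicate 3 together: Atp2b1 A_43_P12761 0.070, Cacna1e A_44_P545717 0.050, Cacna1g A_44_P554973 -0.049, Cacna2d1 A_42_P841762 0.028, Cacng2 A_42_P838347 -0.038, Cacng3 A_44_P341847 -0.080, Cacng4 A_43_P13078 0.062, Orai1 A_42_P673973 -0.11 and Slc8a3 A_44_P522355 -0.043. With 1 array left out, 17 probes with differences between -0.05 and 0.06 changed sign, over these ranges: Atp2a1 A_42_P651991 -0.085 to 0.064, Atp2b1 A_43_P12761 -0.088 to 0.090, Atp2c1 A_43_P13146 -0.059 to 0.18, Cacna1a A_44_P306551 -0.051 to 0.13, Cacna1b A_42_P787410 -0.059 to 0.23, Cacna1e A_44_P545717 -0.10 to 0.18, Cacna1g A_44_P554973 -0.064 to 0.12, Cacna2d1 A_42_P841762 -0.085 to 0.084, Cacnb3 A_44_P245314 -0.029 to 0.11, Cacnb4 A_44_P274459 -0.030 to 0.062, Cacng2 A_42_P838347 -0.033 to 0.10, Cacng3 A_44_P341847 -0.062 to 0.13, Cacng4 A_43_P13078 -0.16 to 0.059, Itpr1 A_44_P215056 -0.031 to 0.14, Orai1 A_42_P673973 -0.20 to 0.16, Slc8a2 A_44_P355902 -0.018 to 0.23 and Slc8a3 A_44_P522355 -0.075 to 0.18.

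Deviations of same-numbered arrays had correlations over tested probes of 0.146, 0.08, -0.005 and 0.246. CCH 1 correlated best with control 3 (0.328) and CCH 4 with control 2 (0.441). In both groups the replicate number was also the position of the array on its slide. The numbers were not used as a pairing in the main fit, and these correlations cannot exclude one. With the replicate block, 0 calcium probes were called, 7 had an unadjusted p under 0.05, and the calls over all probes were 0. A slide or scan block was not run, since each group lies on 1 slide. Medians of the value table ranged from 63.25 to 102 per array.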
